A study of Arabidopsis thaliana with 9 samples.

Results

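The genes described here are 69 members of the NAC family of transcription factors of Arabidopsis thaliana, taken from 27444 nuclear protein-coding genes. The rule that chose them uses names and no measured value, although it was set with earlier results of these data known. The symbol in a RefSeq gene table had to be NAC followed by digits. Of 79 such genes, 10 were left out by the rule (NAC013, NAC044, NAC053, NAC062, NAC078, NAC082, NAC085, NAC089, NAC092 and NAC103), and NAC029, also to be left out, stands in the table under another symbol. All 69 carried a synonym that names the NAC family. Family members listed under another symbol, such as RD26, ATAF1 or VND7, are outside this set. Where the table gives a short or shared symbol, the family number is used instead: NAC021 for NAC1, NAC056 for NAC2, and NAC055 and NAC059 for the pair of genes called NAC3.

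NAC proteins bind DNA through a conserved domain at their amino-terminal end and belong to a large, plant-specific family. Its members are known for roles in drought and salt responses, leaf ageing, thickening of vessel walls, root cap formation and the maturing of phloem cells, and several are known to control the genes of other members. NAC103, the protein whose binding was measured, is known for a part in the responses to unfolded proteins in the endoplasmic reticulum and to DNA damage. The question addressed here is at which other NAC genes peaks of NAC103 were found.

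Chromatin immunoprecipitation (ChIP) was made in 3 replicates from seedlings of the genotype 35S:NAC103-GFP, in which the strong 35S promoter drives the fusion protein. These seedlings were 5 days old, had spent 24 h in 20 µM MG132, a proteasome inhibitor, and were fixed with 1% formaldehyde. DNA affinity purification (DAP) was made in 2 replicates with NAC103-Halo on genomic DNA of untreated Col seedlings of the same age, so that no chromatin was present. Each ChIP replicate had its own input, 3 in all, and the DAP replicates shared 1 input. The submitters' design text gives low NAC103 levels through proteasome degradation as the reason for MG132. The ChIP signal thus comes from a protein driven by 35S, in whole seedlings of mixed cell types and in the presence of MG132, and no ChIP without the tagged protein was used here.

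The authors' 5 peak lists held 4187, 14318 and 17074 nuclear peaks for ChIP replicates 1, 2 and 3, and 20746 and 20962 for the DAP replicates. Every peak came with the authors' fold, the enrichment at its summit over the caller's local background. The lists give no library totals, so the depth is unknown. The pileup, the number of fragments at a summit, could be recovered for 22 of 22, 61 of 61 and 56 of 56 ChIP peaks near the NAC genes and for 75 of 76 and 69 of 70 DAP peaks. The median pileup was 67.5, 53 and 55.5 in the ChIP replicates and 134 and 147 in the DAP replicates, so a DAP peak rested on more fragments than a ChIP peak. Regions and genes were ranked by the percentile of fold within a list, and folds of different lists are set side by side only as each list gives them. The labels do not say whether the replicates are separate cultures, and their spread may be technical.

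A gene was given every region that touched its span or the 1000 bp on each side. A reproducible region was a run of overlapping peaks from at least 2 of the 3 ChIP replicates, or from both DAP replicates. By this rule 28 of the 69 NAC genes (40.6%) had a reproducible ChIP region, beside 39.6% of all coding genes. A ChIP region shared by all 3 replicates was found at 13 NAC genes (18.8%), beside 13.6% of all coding genes. A reproducible DAP region was found at 49 NAC genes (71.0%), beside 59.9% of all coding genes. Both kinds were present at 21 (30.4%, beside 25.2%), ChIP alone at 7 (10.1%, beside 14.4%), DAP alone at 28 (40.6%, beside 34.7%) and neither at 13 (18.8%, beside 25.7%). The ChIP share of the family was thus close to that of coding genes in general under this rule, and the DAP share was higher by count. Without ChIP replicate 1, a ChIP region was left at 26 NAC genes (37.7%, beside 37.2%), without replicate 2 at 15 (21.7%, beside 15.9%) and without replicate 3 at 14 (20.3%, beside 13.8%). Both kinds were then left at 19 (27.5%, beside 23.8%), 9 (13.0%, beside 10.2%) and 8 (11.6%, beside 8.96%). The median span was 1853 bp for the NAC genes and 2078 bp for all coding genes, and its part in these shares was not tested. No test of the family as a list was made, and these shares are descriptions.

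**Figure D1:**
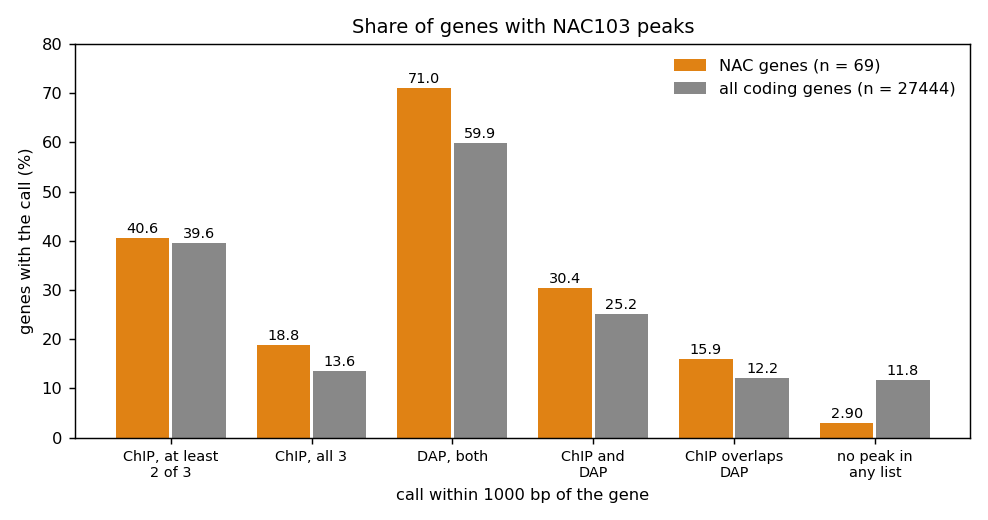
Bars give the percentage of genes with each call within 1000 bp, for the 69 NAC genes (orange, left) and all 27444 nuclear coding genes (grey, right). The ChIP bars for at least 2 of 3 replicates are close, at 40.6% and 39.6%, and the DAP bars are 71.0% and 59.9%.

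The replicates differed in how many NAC genes they reached. A peak of ChIP replicate 1 lay near 17 of the genes (24.6%, beside 17.0% of all coding genes), one of replicate 2 near 38 (55.1%, beside 50.8%) and one of replicate 3 near 39 (56.5%, beside 59.7%). DAP replicate 1 reached 53 (76.8%, beside 64.4%) and DAP replicate 2 reached 51 (73.9%, beside 64.7%). All 5 lists had a peak at 10 NAC genes (14.5%, beside 9.50%), namely NAC001, NAC010, NAC014, NAC032, NAC041, NAC046, NAC048, NAC049, NAC052 and NAC102. At NAC010 the ChIP peaks of the 3 replicates lay at different places and formed no reproducible region. A peak in at least 1 list was found at 67 NAC genes (97.1%, beside 88.2%), and NAC080 and NAC088 had none in any list (2.90%, beside 11.8%). At 17 genes (24.6%, beside 23.7%) ChIP peaks came from 1 replicate and no region was reproducible. At least 2 reproducible regions were found at 10 genes in ChIP (14.5%, beside 10.2%) and at 14 in DAP (20.3%, beside 20.1%).

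**Figure D2:**
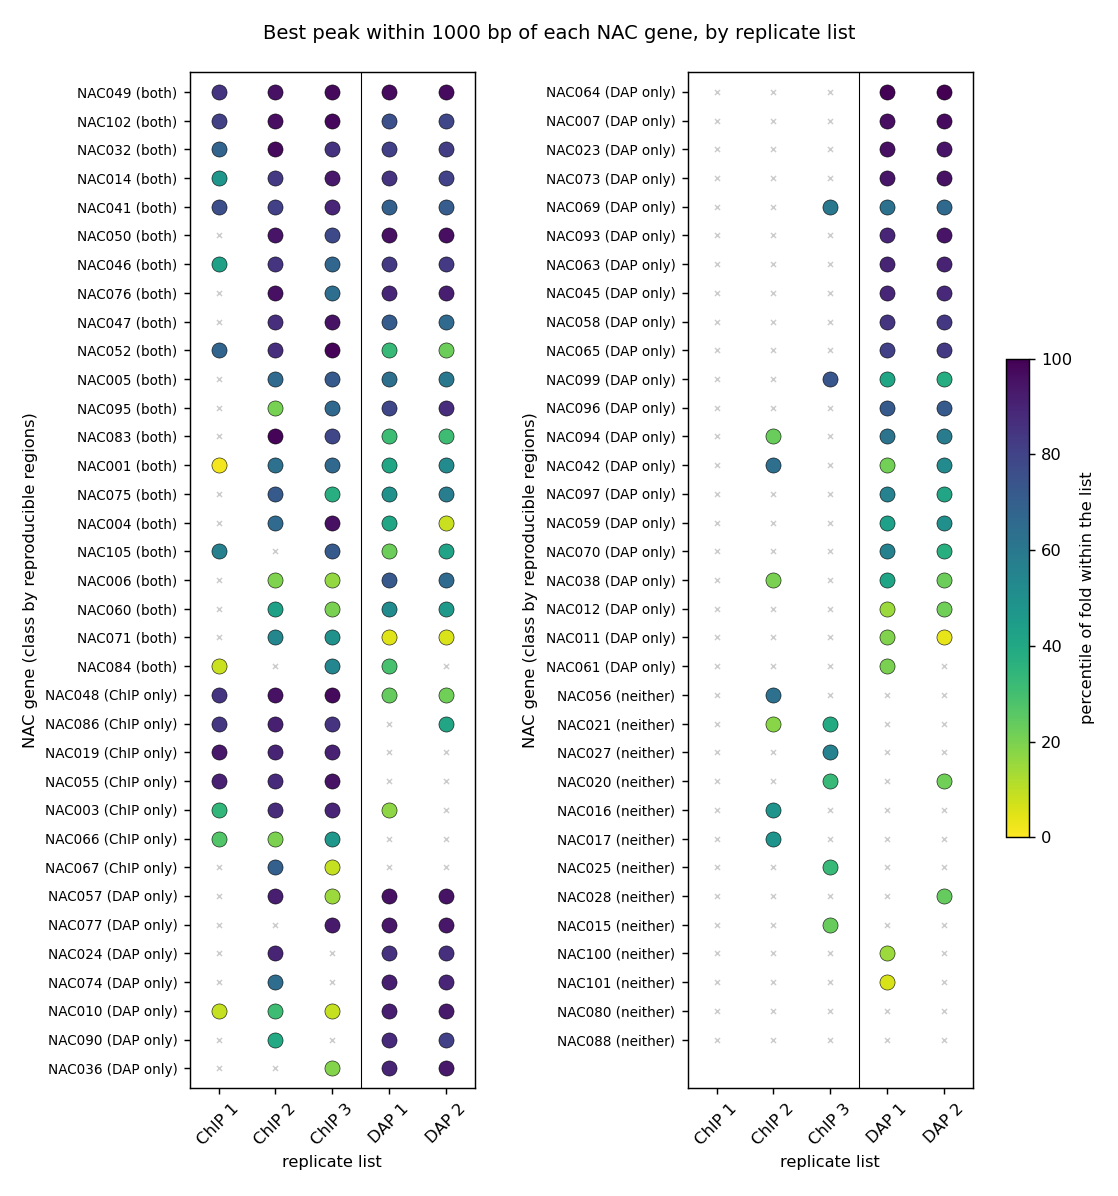
Each row is 1 of the 69 NAC genes and each column a replicate list. Discs show the best peak within 1000 bp, coloured by the percentile of its fold within that list, crosses mark no peak, and names carry the class by reproducible regions. NAC049, NAC102 and NAC032 are dark in the ChIP and DAP columns, NAC019 and NAC055 only in the ChIP columns, and NAC064 and NAC007 only in the DAP columns.

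A ChIP region common to the 3 replicates was found at the following 13 genes: NAC001, NAC003, NAC014, NAC019, NAC032, NAC041, NAC048, NAC049, NAC052, NAC055, NAC066, NAC086 and NAC102. Of the 8 members in the list of stress and abscisic acid genes, 5 had a reproducible ChIP region (beside 39.6% of all coding genes) and 4, NAC019, NAC055, NAC032 and NAC102, had one in all 3 replicates (beside 13.6%). In DAP, 5 of the 8 had a reproducible region (beside 59.9%): NAC032, NAC042, NAC047, NAC096 and NAC102. So few genes were not tested as a list, here or for the lists that follow. NAC019 and NAC055 are related genes of the abscisic acid and jasmonate responses. NAC019 had a region on chromosome 1, positions 19699066 to 19699583, where replicates 1, 2 and 3 of the ChIP had folds of 2.49, 2.74 and 3.72 and pileups of 81, 63 and 75. Its anchor, which is the summit of its best-ranked peak, lay 893 bp outside the gene. A further region over the end of NAC019, positions 19697913 to 19698693, had folds of 1.83, 2.61 and 3.14. NAC019 thus had ChIP peaks of all 3 replicates at 2 places and no DAP peak in either replicate.

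NAC055 showed the same arrangement on chromosome 3. A region at positions 5236345 to 5236900, with its anchor 583 bp outside the gene, had ChIP folds of 2.41, 2.67 and 4.12, and its 3 summits lay within 7 bp of each other. A region at 5233780 to 5235240, with its anchor 39 bp inside the gene, had folds of 2.07, 2.02 and 3.66, with summits up to 646 bp apart. A weaker one at 5235467 to 5235863 was found in replicates 2 and 3 only (1.97 and 1.95). No DAP peak was found at NAC055. By the mean percentile of ChIP fold over the replicates with a peak, the best regions of NAC019 (91.4) and NAC055 (91.4) ranked just below those of NAC048 and NAC049 (92.5 for a region they share) and NAC102 (91.6). NAC086 followed at 86.8. A reproducible ChIP region without a DAP peak was found at 4 NAC genes in all (5.80%, beside 10.7% of all coding genes). The others were NAC066 and NAC067, with weaker folds. NAC066, also called NST2 and known as a switch of wall thickening in anthers, had ChIP folds of 1.80, 1.81 and 2.42.

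NAC102 and NAC032, of the ATAF branch of stress regulators, were found by ChIP and DAP. NAC102 lay under a single broad ChIP region on chromosome 5, positions 25525695 to 25528497, with folds of 2.22, 3.25 and 4.56 for the best peaks of the 3 replicates. Its DAP region at positions 25527053 to 25527409 had folds of 3.71 and 3.88 and pileups of 178 and 194. The ChIP region held several summits, and its anchor lay 956 bp from the DAP anchor. A replicate 1 peak inside it with a fold of 2.10 had its summit at 25527194, close to the DAP anchor at 25527249. The replicate 3 peak over the DAP region was weak (fold 1.60), with its summit at 25526828. The best peaks of replicates 1 and 3 were separate from these, and a wide replicate 2 peak joined them into the region. NAC032 had 2 ChIP regions in all 3 replicates on chromosome 1. That at positions 29099566 to 29101115, within and beside the gene, had folds of 2.09, 2.69 and 3.40. The summits of these best peaks spread over 1178 bp, inside the gene in replicates 1 and 2 and outside it in replicate 3. The region at 29097821 to 29099330 had folds of 2.01, 3.48 and 3.33, and its anchor was nearer to the proteasome subunit gene PBC2 than to NAC032. The DAP region of NAC032 lay off the opposite end, with folds of 4.06 and 4.16, and its anchor was 1184 bp from the nearest ChIP anchor. The other stress members differed. NAC047, known for the upward leaf movement of flooded plants, had ChIP peaks of replicates 2 and 3 only. Its 2 ChIP regions had anchors off opposite ends of the gene. One had folds of 2.61 and 2.69 and overlapped the DAP region (3.48 and 3.20), and the other had 2.35 and 4.11. NAC042, a regulator of longevity, had 1 ChIP peak (replicate 2, fold 2.19). Its reproducible DAP region was weak, with folds of 1.70 and 1.63, a mean fold percentile of 2.76 and its anchor inside AT2G42990.

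Among genes where a ChIP and a DAP region overlapped, the closest match was at NAC050. NAC050 and its neighbour NAC052 encode partners of a histone demethylase that delay flowering. An overlap of a reproducible ChIP region with a reproducible DAP region was seen at 11 NAC genes (15.9%, beside 12.2% of all coding genes), and at 3 (4.35%) without ChIP replicate 2 (beside 4.31%) or without replicate 3 (beside 4.25%). At NAC050 the ChIP region on chromosome 3, positions 3262836 to 3263419, had folds of 3.04 and 3.11 in replicates 2 and 3, with summits 1 bp apart, and no peak in replicate 1. The DAP region at 3263028 to 3263499 had folds of 6.45 and 6.70 and pileups of 310 and 336. The ChIP and DAP anchors lay 3 bp apart, 901 and 904 bp outside the gene, and the DAP summits lay 4 bp apart. At NAC071, a gene of wound healing in stems, the anchors lay 74 bp apart, but the DAP folds were low (1.76 and 1.77). These 2 genes were the ones with anchors within 100 bp (2.90% of the NAC genes, beside 3.78% of all coding genes).

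At the other genes the overlap was looser. NAC105 (VND3), of the vessel switch genes, had ChIP peaks in replicates 1 and 3 (1.98 and 2.84) and a DAP region of folds 2.18 and 2.53, with anchors 161 bp apart. NAC052 had anchors 286 bp apart, at a ChIP region of folds 2.08, 2.64 and 5.09 whose anchor lies inside the next gene, NAC053. NAC075 (314 bp), NAC046 (321 bp), NAC083 (486 bp), NAC041 (492 bp) and NAC047 (513 bp) followed. NAC005 had anchors 224 bp apart, both nearer to a neighbouring gene, AT1G02260. NAC102, described above, completes the 11. Over the 21 NAC genes with both kinds of region the median distance from a ChIP anchor to the nearest DAP anchor was 956 bp, against 672 bp over all coding genes with both. The distance exceeded 1000 bp at 10 of the 21. At 16 of the 21 genes the nearest ChIP and DAP anchors were more than 300 bp apart, although other summits of a region can lie closer, as at NAC102. Only the medians are set beside all coding genes here, so these counts do not show a trait of the NAC genes.

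**Figure D3:**
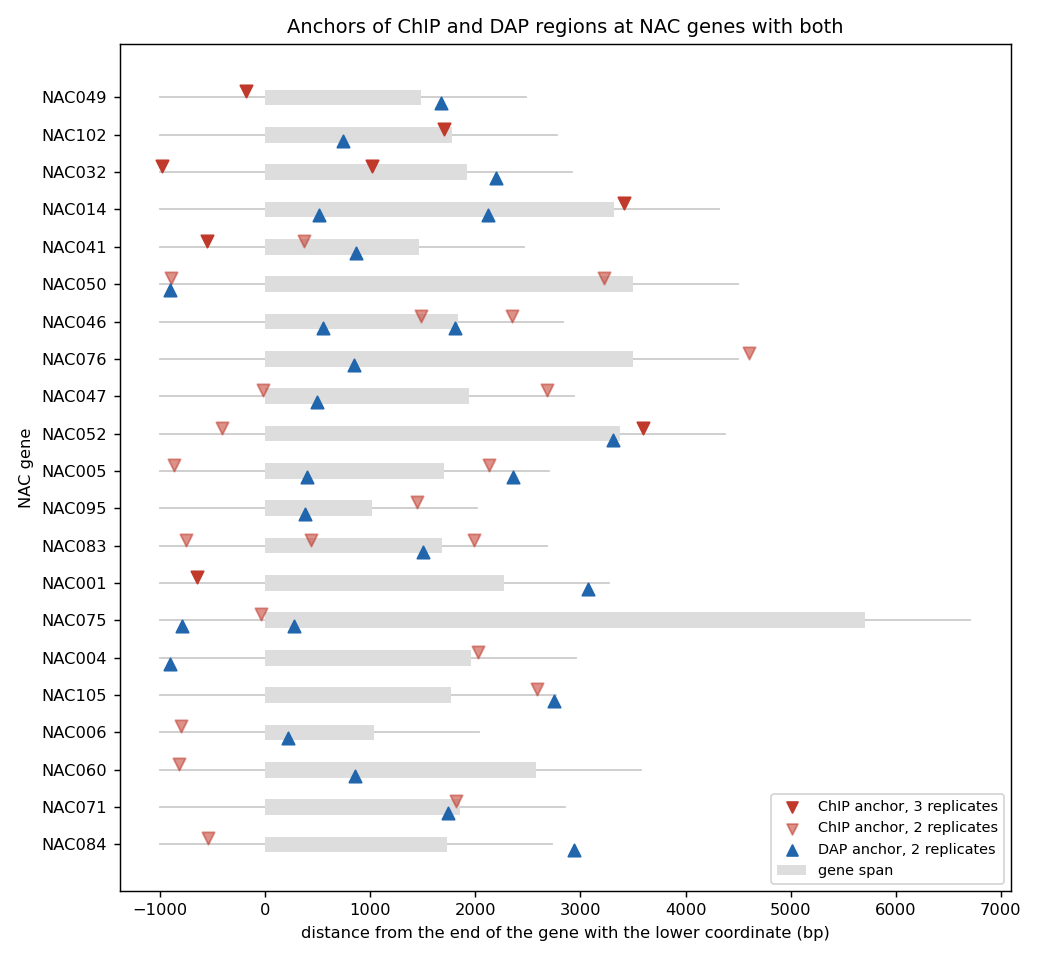
Rows are the 21 NAC genes with a reproducible ChIP and DAP region, and the horizontal axis is the distance in bp from the end of the gene with the lower coordinate. Grey bars are gene spans, thin lines the 1000 bp windows, red triangles ChIP anchors (pale for 2 replicates, dark for 3) and blue triangles DAP anchors. The red and blue marks coincide at NAC050, 3 bp apart, and lie 3758 bp apart at NAC076, where a ChIP peak of replicate 2 alone is not drawn.

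NAC083 (VNI2), known as a brake on vessel formation and on leaf ageing, was one of 2 NAC genes with 3 reproducible ChIP regions, the other being NAC055. All 3 regions of NAC083 rested on replicates 2 and 3. The one inside the gene, on chromosome 5 at 4196482 to 4197589, had the highest ChIP replicate 2 fold near any NAC gene, 4.62 (pileup 119), and 2.38 in replicate 3 (pileup 52). These 2 summits lay 583 bp apart. The DAP region, 184 bp inside the gene, was weak, with folds of 2.34 and 2.31. It overlapped a different ChIP region, at 4197842 to 4198367, with its anchor outside the gene and folds of 2.18 and 2.35. NAC046, which promotes chlorophyll loss in ageing leaves, had its strong DAP region inside the gene, with folds of 4.23 and 4.24, and a weak one near its end, with folds of 2.18 and 2.03. The weak one overlapped a ChIP region of replicates 1 and 2, with folds of 1.90 and 2.48. A second ChIP region of NAC046, outside the gene, had folds of 2.57 and 2.80 in replicates 2 and 3. The other members of the senescence list had no reproducible ChIP region: NAC059 (ORS1) had DAP folds of 2.59 and 2.71, NAC090 had best DAP folds of 4.81 and 4.06, and NAC016 had no DAP peak. Of these 5 genes 2 had a reproducible ChIP region (beside 39.6% of all coding genes) and 4 a DAP region (beside 59.9%).

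Of 10 members of the vessel and wall list, 5 had a reproducible ChIP region (beside 39.6% of all coding genes), 8 a reproducible DAP region (beside 59.9%) and 4 both (beside 25.2%). NAC066 had a ChIP region in all 3 replicates. NAC007 (VND4) had a DAP region inside the gene on chromosome 1, positions 4163266 to 4163760, with folds of 6.63 and 7.22 and pileups of 319 and 362, and no ChIP peak in any replicate. NAC073 (SND2), a gene of wall thickening, had DAP folds of 5.95 and 6.39 in a region at 14081526 to 14083195 of chromosome 4, also without a ChIP peak. NAC010 (SND3) had 3 DAP regions, more than any other NAC gene, with the strongest at folds of 5.29 and 5.65 and its anchor 87 bp outside the gene. NAC076 (VND2) had a DAP region inside the gene with folds of 4.95 and 5.33, while its reproducible ChIP region (2.22 and 2.04 in replicates 2 and 3) lay beyond the far end, nearer to AT4G36170. A stronger ChIP peak of NAC076, found in replicate 2 alone (3.20), had its summit at position 17111466, beside the DAP anchor at 17111487. NAC012 (NST3), a main switch of fibre walls, had a weak DAP region (2.03 and 2.13), and NAC101 (VND6) had 1 DAP peak, in replicate 1 (1.80). Within one functional group the folds thus ranged from strong to none.

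The strongest DAP region near any of the 69 genes lay inside NAC064. This gene, with no role listed here, had DAP folds of 11.17 and 11.96 on chromosome 3, positions 20949098 to 20949621, with summits 1 bp apart and 448 bp inside the gene. The mean fold percentile was 99.6, and no ChIP replicate had a peak in the 1000 bp window. With 2000 bp on each side, NAC064 had a ChIP region in all 3 replicates and an overlap of a ChIP with a further DAP region. A reproducible DAP region without any ChIP peak was found at 16 NAC genes (23.2%, beside 16.7% of all coding genes). Of these, NAC045 and NAC093 also had a reproducible ChIP region with 2000 bp on each side. After NAC064 and NAC007 the order by mean fold percentile was NAC023 (6.49 and 6.09), NAC073 and NAC093 (4.98 and 6.03), then NAC063 (5.06 and 5.11). NAC023 and NAC093 also had their anchors inside the gene, as did NAC063.

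Membrane-tethered NAC proteins are held at a membrane until they are cut free to enter the nucleus. Of 6 such genes 3 had a reproducible ChIP region (beside 39.6% of all coding genes), 2 of them in all 3 replicates (beside 13.6%), and 4 a DAP region (beside 59.9%). ChIP and DAP regions overlapped at 0 of the 6 (beside 12.2%). NAC014 had ChIP folds of 1.93, 2.52 and 3.92 at a region whose summits lay within 23 bp, with its anchor 96 bp outside the gene. Its 2 DAP regions lay inside the gene, the stronger with folds of 4.42 and 3.998. NAC001 had ChIP folds of 1.57, 2.19 and 2.79, the replicate 1 peak being at the limit of the list with a −log10 q of 1.31, and its DAP region was nearer to ARV1. NAC060 had a ChIP region of replicates 2 and 3 with folds of 2.01 and 2.04, its anchor nearer to AT3G44280. The DAP region of NAC060 had folds of 2.80 and 2.61. NAC069 had a DAP region of folds 3.11 and 3.22 and 1 ChIP peak, in replicate 3 (2.65). NAC017, a main regulator of the response to failing mitochondria, and its neighbour NAC016 lie 117 bp apart and had 1 peak between them in all 5 lists, a ChIP replicate 2 peak with a fold of 2.05.

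Of the 4 phloem genes 1 had a reproducible ChIP region (beside 39.6% of all coding genes) and 2 others a DAP region (beside 59.9%). NAC086, which with NAC045 is known to drive the loss of the nucleus in sieve elements, had ChIP folds of 2.26, 2.81 and 3.38 in a region with its anchor 265 bp outside the gene. Its DAP peak was in replicate 2 only (2.51). NAC045 had no ChIP peak and a DAP region with folds of 4.91 and 4.79, its anchor 36 bp outside the gene. NAC057 had DAP folds of 6.34 and 6.25 off one end and 3.90 and 4.16 off the other, and it had a ChIP replicate 2 peak at the end with the weaker DAP region (2.82) and a replicate 3 peak at the other end (1.96). NAC020 had 1 ChIP peak (replicate 3, 2.20) and 1 DAP peak (replicate 2, 2.13). The difference between these genes was not tested.

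The flowering and chromatin list holds NAC050 and NAC052, both with ChIP and DAP regions, and the remaining lists with members hold 1 to 3 each. The root cap genes NAC015 (BRN1) and NAC070 (BRN2) had no reproducible ChIP region, and NAC070 had DAP folds of 2.90 and 2.43. NAC021, a gene of lateral root growth, and the seed genes NAC025 and NAC056 had no reproducible region in either assay, although NAC056 had 3 peaks in ChIP replicate 2. Of the wound and graft healing genes NAC011, NAC071 and NAC096, all 3 had a DAP region, strongest at NAC096 (3.50 and 3.48), and NAC071 had a ChIP region. No member fell in the DNA damage list. Of the 30 NAC genes in no list, 10 had a reproducible ChIP region, 22 a DAP region and 7 both (beside 39.6%, 59.9% and 25.2% of all coding genes). NAC003, one of the 10, had ChIP folds of 1.85, 2.65 and 3.63 in the 3 replicates, 342 bp outside the gene, and no reproducible DAP region. A DAP peak of replicate 1 only (2.07) overlapped this ChIP region. NAC041 had ChIP folds of 2.16, 1.96 and 3.65 at a region whose anchor lay 554 bp outside the gene, with summits up to 814 bp apart. Its DAP region, inside the gene, had folds of 3.40 and 3.42 and did not overlap that region. The DAP region overlapped a second ChIP region, also inside the gene, with folds of 2.48 and 2.17 in replicates 2 and 3.

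Neighbouring NAC genes shared regions. In 7 places 2 NAC genes lay next to each other, and 3 ChIP regions counted for both genes of such a pair. NAC048 and NAC049 shared a region on chromosome 3, positions 1175131 to 1175624, with ChIP folds of 2.28, 3.12 and 4.46 and pileups of 78, 72 and 90. Its anchor was 182 bp outside NAC049 and nearer to that gene than to NAC048. NAC049 also had a strong DAP region off its opposite end, with folds of 7.05 and 7.02 and pileups of 339 and 352, but the ChIP and DAP anchors lay 1858 bp apart. NAC004 and NAC005 shared a ChIP region of replicates 2 and 3 (2.19 and 2.94), as did NAC050 and NAC052 (2.13 and 3.09). The 28 genes with a reproducible ChIP region therefore stood on 37 distinct regions, and at 8 of them each such region had its anchor nearer to another coding gene. For DAP this was so at 4 of 49 genes, on 64 distinct regions. At NAC041 the replicate 2 peak of the region found in all 3 replicates lay outside the window, as did the DAP replicate 2 peaks of the regions at NAC061 and NAC084.

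The assays differed in where the regions sat. Of 40 pairs of a NAC gene and a ChIP region, 12 (30.0%) had the anchor inside the gene, against 38.0% for all coding genes. Of 64 such pairs for DAP, 37 (57.8%) had it inside, against 51.3%. Anchors inside the gene and more than 300 bp from either end made up 6 of the ChIP pairs (15.0%, beside 14.7% for all coding genes) and 25 of the DAP pairs (39.1%, beside 36.7%). Outside the genes the median distance to the nearer end was 549.5 bp for ChIP (485 bp for all coding genes) and 748 bp for DAP (653 bp). ChIP regions at NAC genes thus lay mostly beside the genes and DAP regions mostly in them, as for all coding genes. Because the gene table gives no strand, upstream and downstream were not told apart.

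By count, ChIP regions were not more frequent at the NAC genes with the strongest DAP peaks. Of the 24 NAC genes whose mean DAP fold percentile was at least 75, 8 (33.3%) had a reproducible ChIP region, against 42.9% of all coding genes in that range. The share was 5 of 8 between 50 and 75 (62.5%, beside 42.9%), 11 of 24 under 50 (45.8%, beside 40.3%) and 4 of 13 with no DAP peak (30.8%, beside 34.6%). The steps hold few NAC genes each and were not tested.

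ChIP folds at NAC genes agreed less well between replicates than DAP folds. Across the 64 DAP regions at NAC genes the folds of the 2 replicates ranked alike (Spearman 0.972), their ratio, replicate 2 over replicate 1, ran from 0.80 to 1.21, and the summits were 9 bp apart at the median. Across the 34 ChIP regions with peaks in replicates 2 and 3 the Spearman value was 0.543, the ratio, replicate 3 over replicate 2, ran from 0.514 to 1.93, and the summits were 96.5 bp apart at the median. For replicates 1 and 3 the Spearman value was 0.706 over 17 regions, with summits 53 bp apart, and for replicates 1 and 2 it was 0.574 over 16 regions, with summits 169.5 bp apart. The median fold over all nuclear peaks was 1.94, 2.06 and 2.47 in ChIP replicates 1, 2 and 3, and the ratios are not corrected for this. These correlations are over regions, which are not independent, and the DAP replicates share an input.

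**Figure D4:**
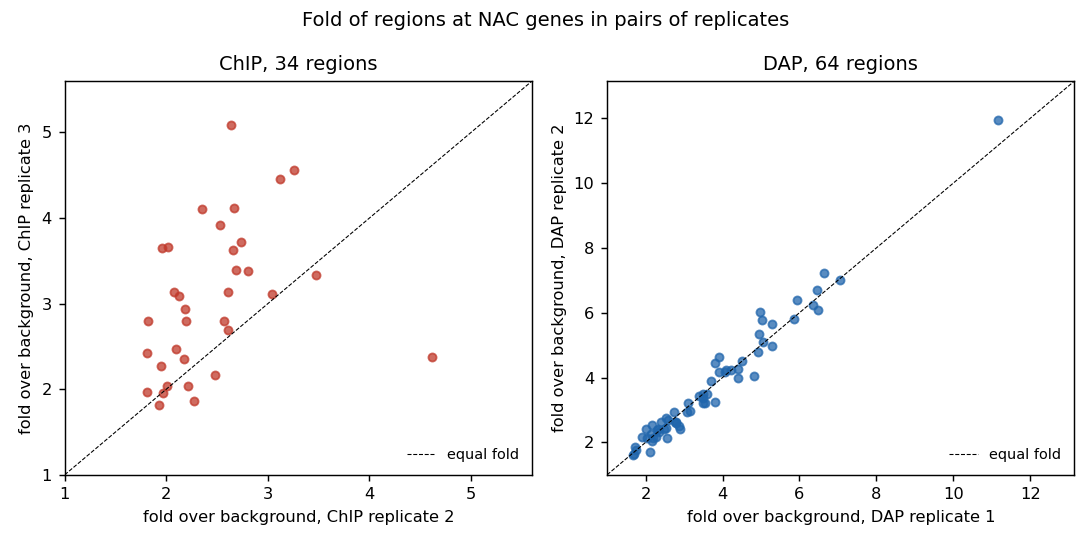
Each point is a region at a NAC gene, with the authors' fold over background in one replicate against another: ChIP replicates 2 and 3 on the left (34 regions), DAP replicates 1 and 2 on the right (64 regions). The dashed line marks equal folds. The DAP points lie along it, and the ChIP points scatter, most of them above it (27 of 34).

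Stricter thresholds lowered the counts of NAC genes and of all coding genes. With peaks of −log10 q of at least 10 only, 6 NAC genes had a reproducible ChIP region (8.70%, beside 5.44% of all coding genes), namely NAC032, NAC048, NAC049, NAC050, NAC086 and NAC102. A DAP region was left at 44 (63.8%, beside 52.1%). With the 4187 top peaks of each list, 14 NAC genes had a ChIP region (20.3%, beside 14.7%) and 22 a DAP region (31.9%, beside 17.1%). Both were left at NAC014, NAC032, NAC046, NAC049 and NAC050 (5 genes, 7.25%, beside 3.17%), and an overlap at NAC050 (1.45%, beside 1.61%). Among the 10 NAC genes that the rule left out, 8 had a reproducible ChIP region (beside 39.6% of all coding genes) and 9 a DAP region (beside 59.9%). They were left out by name, and the difference from the 69 was not tested.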

How the data were processed

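The authors deposited 1 narrow peak list for each ChIP and DAP replicate, called against input. The submitters' processing notes name BWA, MACS2 and the build TAIR10; versions and settings are not given in the sources used here. Each deposited list gives a fold over background (a ratio), −log10 of p and of q, a score that is 10 times −log10 q, and positions. The lowest deposited −log10 q was 1.30. Organelle peaks (139) were left out.

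Within each assay, peaks sharing 1 bp or more were joined into a region, and regions were given to genes as the report states. Gene names, spans and neighbours came from a RefSeq table of TAIR10.1, which gives no strand. In 25 of 25 chromosome segments ChIP anchors lay within 300 bp outside gene ends more often than after shifts of 2000 bp. Coordinates are 1-based, on TAIR10. The pileup was recovered by taking the fold as (pileup + 1)/(background + 1) and the p-value as a Poisson tail. It had to meet the deposited −log10 p within 0.01, which 98.6% to 100% of the peaks near NAC genes did in each list, against 10.5% to 24.6% after a shift of 0.13. Planned promoter words were not analysed here, and no sequence was used.

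The calculations were tested on simulated data (687 genes, 0 wrong calls) and run in Python 3.11.15 with numpy 2.4.6 and scipy 1.17.1. No test across samples or lists was made. Members, role lists and rules were chosen with earlier results of these data known. Genes were named by rank, the mean fold percentile over the lists: up to 12 with overlapping regions, up to 6 with ChIP and no DAP peak, up to 6 with DAP and no ChIP peak, in each role list those with ChIP in all 3 replicates and up to 3 others, and neighbouring members. Other genes named were picked after their values were seen.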

Additional observations from a re-analysis of the deposited data

How the results depend on the processing

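Over 61 alternative values, 42 stayed within 1.5 times the reported count. Some of the 42 could not change. Leaving out a DAP replicate cannot change the count of genes with a ChIP region. Leaving out a ChIP replicate cannot change the count with a DAP region. With a −log10 q of at least 10, ChIP regions were left at 6 genes (8.70%, beside 5.44% of all coding genes). Both kinds were left at 4 (5.80%, beside 3.40%), an overlap at 2 (2.90%, beside 1.91%) and ChIP in all 3 at 0 (beside 0.78%). With equal numbers of top peaks ChIP regions were left at 14 (20.3%, beside 14.7%) and DAP regions at 22 (31.9%, beside 17.1%). Both kinds were left at 5 (7.25%, beside 3.17%) and an overlap at 1 (1.45%, beside 1.61%). A peak in any ChIP replicate gave 48 genes (69.6%, beside 68.7%), and 28 of them were those reported. Without a flank 10 genes had both (14.5%, beside 13.6%), and 13 where no other coding gene was nearer to the anchor (18.8%, beside 13.7%). Overlap of 50% of each region left 4 genes (5.80%, beside 4.34%) and summits within 100 bp left 2 (2.90%, beside 3.78%). Leaving out 1 ChIP replicate gave 14 to 26 genes for ChIP (20.3% to 37.7%, beside 13.8% to 37.2%). It gave 8 to 19 for both (11.6% to 27.5%, beside 8.96% to 23.8%). Overlapping regions were left at 3 to 9 (4.35% to 13.0%, beside 4.25% to 11.5%). The lowest of these counts came without ChIP replicate 3 (for overlapping regions, also without replicate 2). Leaving out 1 DAP replicate relaxed the DAP rule to a peak in the 1 list left. It gave 51 and 53 genes for DAP (73.9% and 76.8%, beside 64.7% and 64.4%). Both kinds were then found at 22 and 23 (31.9% and 33.3%, beside 27.1% and 27.0%). Overlapping regions were found at 11 and 15 (15.9% and 21.7%, beside 13.1% and 13.0%). The rule of all 3 ChIP replicates cannot be asked of 2, and its count of 13 does not depend on the DAP lists. The promoter words were not run. The cause of these changes was not tested.

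No paired analysis was possible because the results are counts of peaks from separate lists, with no test across samples, and the ChIP and DAP replicates share only their numbers.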
